A study of Trichoderma reesei with 11 samples.

Results

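Light was compared with darkness in the parent strain of Trichoderma reesei, in mycelium grown on cellulose for 96 h at 28 °C. T. reesei is a filamentous fungus known for secreting cellulases. The members are 5 RNA-seq libraries of the 11 in the series, chosen by their titles: 3 from constant light and 2 from constant darkness. All 5 come from QM6a-delta-mus53, which lacks mus53, so this deletion is shared by both conditions; mus53 encodes a ligase of non-homologous end joining, and its loss favours targeted gene replacement. The labels call this strain wild type for TR_57513, a kinase gene of the HOG pathway by the series title, which the strain of the 6 other libraries lacks. Those libraries are from QM6a-delta-mus53-delta-57513, with 3 in light and 3 in darkness under the same growth conditions. Whether replicates were separate cultures is not stated in the labels.

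Trichoderma senses blue light through BLR1 and BLR2, relatives of the White Collar proteins of Neurospora crassa, and through the photoreceptor ENVOY. Light is known in this fungus to alter the formation of conidia, secondary metabolism and the expression of cellulase genes. The deposited table lists 10879 gene IDs, of which 10876 are systematic IDs without names. The other 3 are mat1-1 rows, with 1 count over all libraries. Of the 10879 IDs, 0 matched the 9116 genes of the RefSeq annotation of assembly GCF_000167675.1. None of the systematic IDs could therefore be looked up by name, and the label of mycelium could not be checked against markers. Changes are described by ID, by number and by level. At most 4 IDs are named.

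Dark parent libraries held 15175573 and 16308391 counts and light parent libraries 8020351 to 8770166. The dark libraries carry the library numbers 180295 and 180296 and the light ones 208846 to 208848. Light and any difference between these runs of library numbers cannot be told apart. Between the dark libraries, 9.94% of the 9040 tested gene IDs differed at least 2-fold, and between pairs of light libraries 6.50% to 12.8%. Between a dark and a light library the share was 23.5% to 27.2%. Light replicate 1 stood furthest from its group, with a Pearson r across gene IDs of 0.973 and 0.960 against the other light libraries, which had 0.985 between them.

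By difference in mean CPM, the gene ID with the largest rise in light was TrE0391W, which came to hold the largest single share of the counts. It stood at 11.5 and 119 CPM in the 2 dark libraries, and at 38677, 22756 and 17210 CPM in the 3 light libraries. CPM are counts per 1000000 after TMM scaling, a scaling of library totals that assumes most genes keep their level, and they are not divided by gene length. Every light library lay far above both dark ones, although the dark libraries themselves were about an order of magnitude apart. TrE0391W was higher in light by 8.65 on the log2 scale (SE 1.56, edgeR adjusted p = 0.00264). The estimate rests on the dark libraries: it was 7.78 without dark replicate 1 and 11.15 without dark replicate 2 (edgeR adjusted p = 0.0155 and 0.00585). In light replicate 1 this ID alone took 4.0% of all counts, against 0.00109% and 0.0107% in the dark libraries. By number of counts it ranked 3175 in darkness and 1 in light.

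The next largest rise in CPM was that of TrB1256C, which was already abundant in darkness. Its level was 1737 and 2070 CPM in the dark libraries and 8703, 6048 and 4429 CPM in the light libraries. The groups did not overlap, which the rule for choosing named IDs required. The rise of 1.75 on the log2 scale (SE 0.25, edgeR adjusted p = 0.000638) was far smaller than that of TrE0391W. In both IDs, light replicate 1 was the highest and light replicate 3 the lowest of the light libraries.

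By difference in mean CPM, the largest falls were those of TrC1166C and TrG0022C, which took many counts in darkness and few in light. TrC1166C was at 13236 and 12033 CPM in the dark libraries and at 8.68, 11.3 and 10.4 CPM in the light libraries. Its log2 fold change was -10.28 (SE 0.56, edgeR adjusted p = 3.38e-06), and its rank by counts went from 2 to 6481. TrG0022C was at 10549 and 7223 CPM in darkness and at 9.25, 8.26 and 5.49 CPM in light. It changed by -10.18 on the log2 scale (SE 0.93, edgeR adjusted p = 7.17e-05). Both IDs kept a low level in light, with 77 to 93 counts per light library for TrC1166C and 49 to 82 for TrG0022C.

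The light changes of these 4 IDs had the same direction in the strain without TR_57513. TrE0391W rose there from 53.1 ± 40.1 CPM (SD, n = 3) in darkness to 3047 ± 1569 CPM (SD, n = 3) in light, and TrB1256C from 545 ± 42.3 to 1372 ± 77.5 CPM. TrC1166C fell from 12377 ± 5948 to 32.3 ± 11.4 CPM, and TrG0022C from 15450 ± 10152 to 19.6 ± 12.6 CPM. In the interaction test, which 10.8% of all tested IDs passed, the light effects of the strains did not differ past the threshold for any of the 4, with edgeR adjusted p = 0.0889 for TrC1166C, 0.247 for TrE0391W, 0.431 for TrB1256C and 0.753 for TrG0022C. The interaction estimate for TrE0391W was nevertheless -2.81 on the log2 scale, so a smaller rise in the deletion strain is not shown to be absent. The deletion libraries carry the same separate runs of library numbers for light and darkness.

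**Figure D1:**
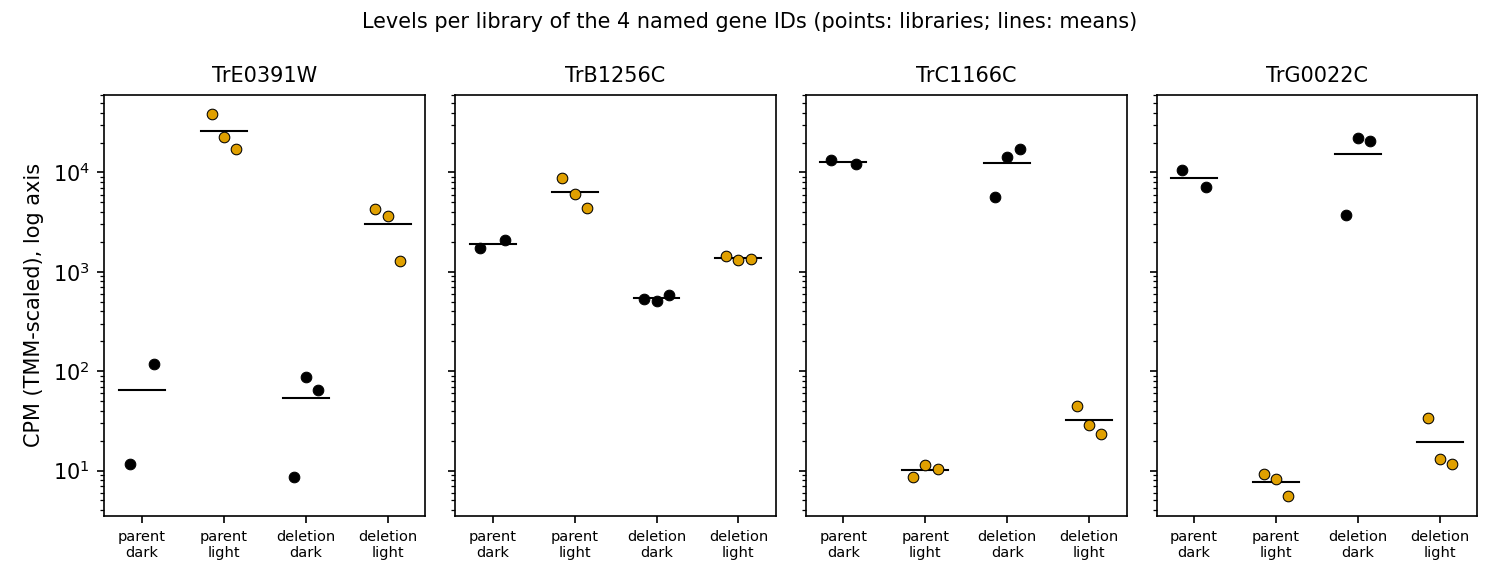
CPM per library on a log axis for the 4 named gene IDs, in darkness (black) and light (yellow) in the parent and the deletion strain; lines are group means. Light parent libraries of TrE0391W sit at 17210 to 38677 CPM, and those of TrC1166C at 8.68 to 11.3 CPM against 12033 and 13236 CPM in darkness.

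Over all tested gene IDs, falls in light were larger than rises. Light was tested with edgeR's quasi-likelihood test at a Benjamini-Hochberg adjusted p under 0.05. Of the 9040 IDs, 1657 rose (18.3%) and 1841 fell (20.4%), together 38.7%. The median log2 fold change was 0.75 among the IDs that rose and -1.35 among those that fell, while the median over all tested IDs was -0.00. At least 2-fold, 570 rose (6.31%) and 1092 fell (12.1%). At least 4-fold, 245 rose and 695 fell, and at least 64-fold 31 rose and 163 fell. The number of falls of any size depends on the scaling: with library totals alone 2461 rose and 1433 fell, and with upper-quartile scaling 2167 rose and 1563 fell, which moved the median over all IDs to 0.15 and 0.10. At least 2-fold, falls outnumbered rises under both, with 982 against 759 and 1009 against 695.

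**Figure D2:**
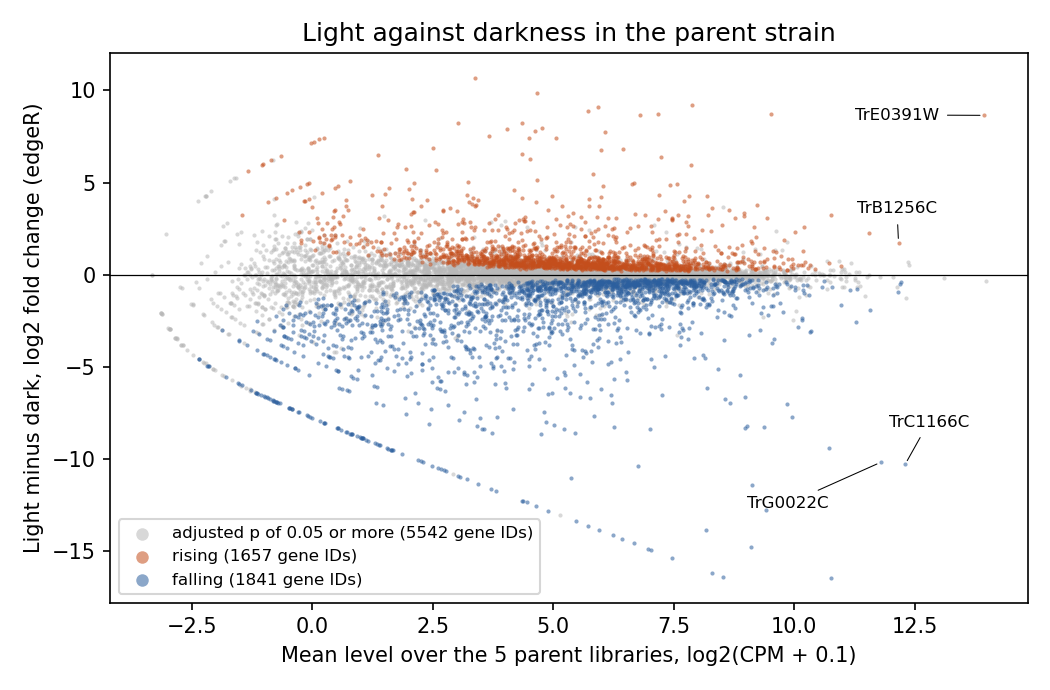
Log2 fold change of light against darkness for each of the 9040 tested gene IDs, against the mean level over the 5 parent libraries as log2(CPM + 0.1). Blue points (1841 falling) reach further from zero than orange points (1657 rising), and the curved rows of points at the left are IDs with few or no counts in 1 condition, whose fitted fold depends on the prior count.

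Changes of at least 16-fold comprised 311 falls and 78 rises. The IDs that fell had a median dark level of 13.7 CPM, with a highest of 12634 CPM, and 64 of them exceeded 100 CPM in darkness. Those that rose had a median light level of 17.1 CPM, with a highest of 26214 CPM, and 21 of them exceeded 100 CPM in light. In 160 of the 311 falls the light libraries held at most 3 counts together, and in 31 of the 78 rises the dark libraries did. The fitted folds of these IDs rest on the prior count that edgeR adds and bound nothing. CPM ranges of light and dark libraries were apart for 311 of the 311 falls and for 76 of the 78 rises. Over all tested IDs the share was 60.5%. These changes were chosen on the same libraries, which favours ranges that lie apart.

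Falls of at least 2-fold outnumbered rises in each class of read count, by most among IDs with few counts. The tested IDs were split into 3 classes of equal size by their mean over the 5 parent libraries. That mean takes in 3 light and 2 dark libraries. An ID present only in darkness thus gets a lower mean than an ID equally high only in light. Falls are thereby moved towards the lowest class and rises away from it, and how far this shaped the numbers was not tested. In the lowest class, up to 15.7 CPM, 282 rose and 605 fell at least 2-fold. In the middle class, up to 69.8 CPM, 163 rose and 255 fell, and in the highest class 125 rose and 232 fell. The share of called IDs differed little between the classes, at 36%, 40.2% and 39.9%. Among called IDs the median absolute log2 fold change was 2.09 in the lowest class and 0.63 in the highest, and fewer counts leave only larger changes detectable. Without dark replicate 1, 180 rose and 470 fell at least 2-fold among the IDs of the lowest class. The test against a 2-fold change left 82 rising and 310 falling there, and a stricter filter 186 rising.

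**Figure D3:**
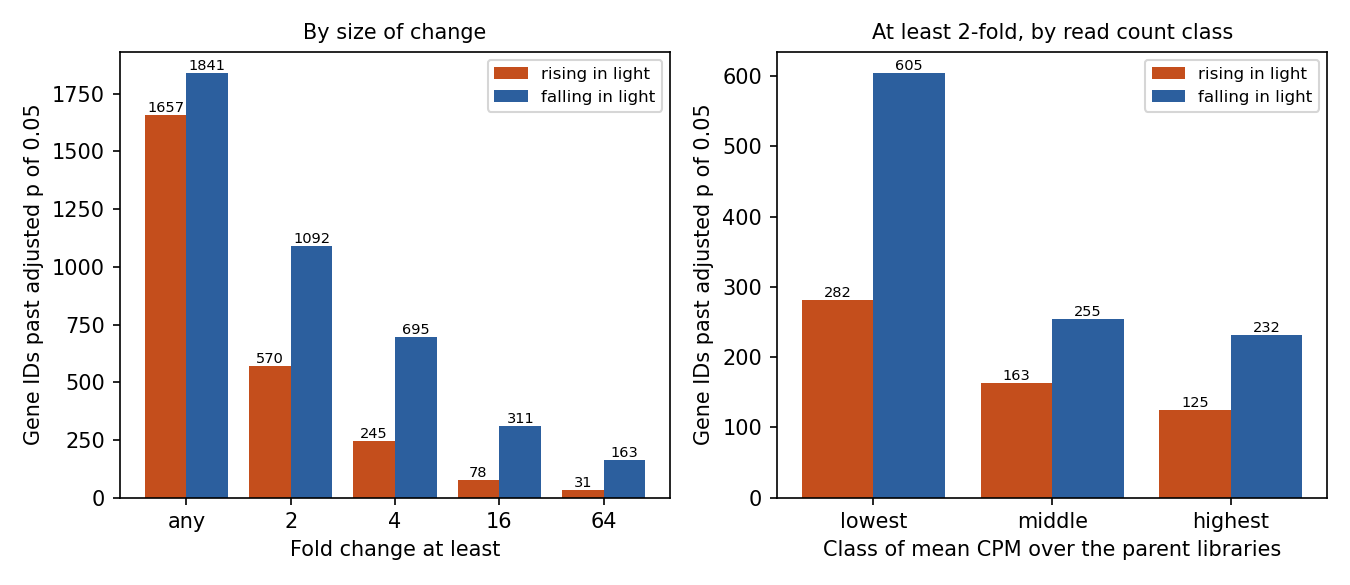
Numbers of gene IDs past the threshold that rose (orange) or fell (blue) in light, by minimum fold change (left) and, at least 2-fold, by class of mean CPM over the 5 parent libraries (right). At least 16-fold, 311 fell and 78 rose, and the lowest class holds 605 falls and 282 rises.

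Some gene IDs were present in darkness and had no count in light. With 0 counts in all 3 light libraries and at least 1 CPM in both dark libraries, 72 IDs met this description. A floor of 3 counts over the light libraries corresponds to 0.115 CPM. The dark means of these 72 IDs ran from 1.17 to 918 CPM with a median of 7.49 CPM, 32 of them exceeded 10 CPM and 11 exceeded 100 CPM. They came from all 7 lettered ID series. In the deletion strain in light, 25 of the 72 also had 0 counts in the 3 libraries. Of all 10879 IDs, each of these libraries had at least 1 count for 9590 to 9666. The reverse pattern, 0 counts in both dark libraries and at least 1 CPM in every light library, was found for 1 ID at a mean of 1.54 CPM. The dark libraries were deeper and fewer, so the numbers were also taken at equal depth, where 74 IDs had 0 counts in light and 8 in darkness. Allowing at most 3 counts over the group gave 122 and 14.

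The number of detected gene IDs was lower in each light library than in either dark library. When each library was thinned to 8020351 counts, a mean over 10 draws of 9528 and 9562 IDs had at least 1 count in the dark libraries, and 9286, 9359 and 9257 in the light libraries. The mean difference, light minus dark, was -244.7 IDs, or -195.2 IDs when at least 5 counts were asked for. With 3 against 2 libraries an exact two-sided permutation test cannot give a p below 0.2, and it gave 0.2 here. The 20 IDs with most counts in each library held 12.0% and 11.8% in the dark libraries and 13.7%, 11.3% and 10.9% in the light libraries, so the groups overlapped.

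The IDs with the most counts differed in part between the conditions. Of the 100 IDs with the highest mean CPM in darkness, 63 were also among the 100 highest in light. In the dark list, 41 fell past the threshold and 2 rose, and 27 of the falls were at least 2-fold; over all tested IDs 20.4% fell, 18.3% rose and 12.1% fell at least 2-fold. In the light list, 25 rose and 10 fell, beside 18.3% and 20.4% over all tested IDs. At least 2-fold, 11 rose, beside 6.31%. The rises of the light list stood closer to the shares over all tested IDs than the falls of the dark list did. Both lists were chosen on the libraries that are compared, which favours falls in the first and rises in the second.

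The IDs that fell in the parent held 32.4% and 30.6% of the counts in the dark parent libraries and 14.1% to 14.8% in the light ones. Those that rose went from 10.2% and 10.1% to between 21.8% and 25.8%. These parent values follow from the choice of IDs. In the deletion strain, whose libraries entered the filter, the scaling and the estimate of the spread but not the contrast, the IDs that fell in the parent held 31.3% to 35.7% of counts in darkness and 18.4% to 19.1% in light. The IDs that rose in the parent held 10.7% to 10.9% in darkness there and 18.2% to 19.2% in light.

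**Figure D4:**
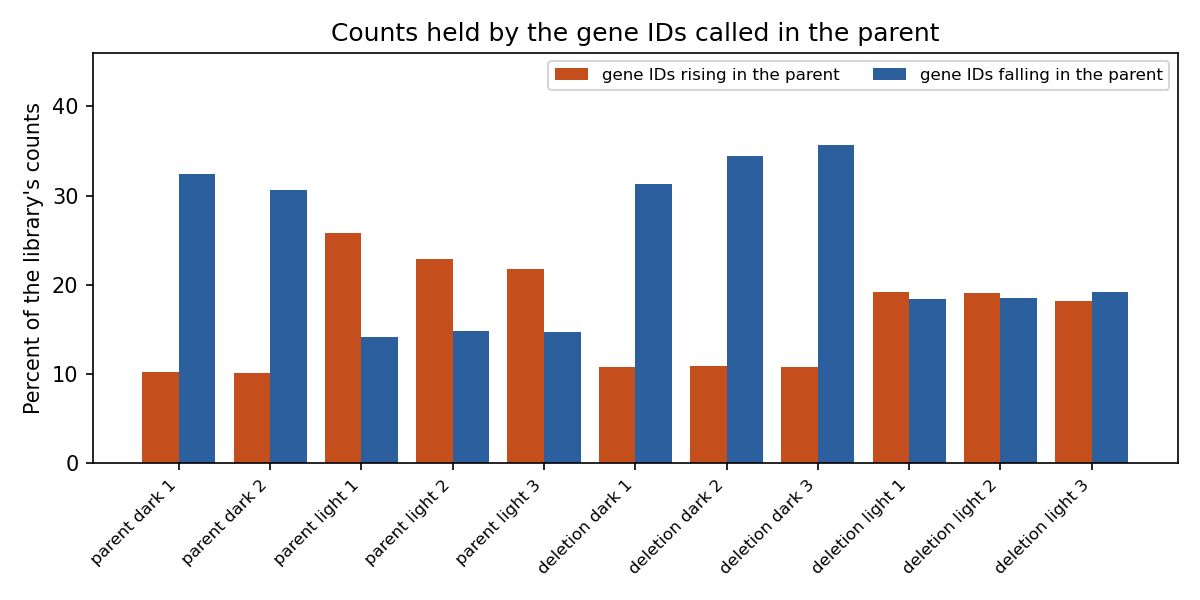
Percent of each library's counts held by the gene IDs that rose (orange) or fell (blue) in light in the parent, for all 11 libraries. In the deletion strain the blue bars drop from at least 31.3% in darkness to at most 19.1% in light, and the orange bars rise from at most 10.9% to at least 18.2%.

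Of the 1092 IDs that fell at least 2-fold in the parent, 792 also fell past the threshold in the deletion strain, where 22.7% of all tested IDs fell. This was 72.5% of the parent list and 38.6% of the 2052 falls of any size in the deletion strain. Of the 570 IDs that rose at least 2-fold, 336 also rose there, where 20.3% of all tested IDs rose. This was 58.9% of the parent list and 18.3% of the 1832 rises of any size in the deletion strain. The deletion lists had no minimum fold, which lowers the shares taken of them. With no minimum in the parent either, 1140 of its 1841 falls and 934 of its 1657 rises had the same call in the deletion strain. Of the 311 falls of at least 16-fold, 275 fell in the deletion strain, and of the 78 such rises, 49 rose. The strains share no library but share the fit and the runs of library numbers.

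The light libraries differed among themselves at the IDs called in light. Whether these differences reflect the extent of a response to light was not tested. Among the 1657 IDs that rose, light replicate 1 was the highest of the 3 light libraries for 848, replicate 2 for 336 and replicate 3 for 473. Among the 1841 that fell, light replicate 1 was the lowest for 845, replicate 2 for 361 and replicate 3 for 635. By these numbers light replicate 1 lay furthest from the dark libraries for more IDs than either other replicate in both directions. Ties between light libraries were counted for the lower replicate number. Among the falling IDs this can add to the 845 of replicate 1, since 70 called IDs had 0 counts in all 3 light libraries. How far ties shaped the numbers was not tested. Light replicate 1 was also the lowest light library for 456 of the rising IDs and the highest for 597 of the falling ones, ties included. It was thus not the further one throughout. Among the 570 rises of at least 2-fold its lead was small. Replicate 1 was the highest for 247 and the lowest for 215, and replicate 3 for 217 and 226. Among the 1092 falls of at least 2-fold, replicate 1 was the lowest for 494 and the highest for 365, and replicate 3 for 384 and 458. Light replicate 1 lay at least 2-fold from both other light libraries, on the same side of them, for 55 of the rising and 143 of the falling IDs. For replicate 2 the numbers were 4 and 55, and for replicate 3 they were 29 and 73. The light libraries spanned at least 4-fold for 42 of the rising and 94 of the falling IDs. Without light replicate 1, 567 IDs rose and 977 fell at least 2-fold.

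Changes in the same direction were often found at consecutive ID numbers. The systematic IDs hold a series letter from A to G, a serial number and an ending W or C, whose meaning the labels do not give. Of the 872 IDs that fell at least 2-fold and whose next number was tested, 301 (34.5%) were followed by an ID that also fell at least 2-fold, beside 12.1% over all tested IDs. For rises of at least 2-fold the share was 14.4% (69 of 478), beside 6.31%. At any size past the threshold, 16 runs of at least 5 consecutive IDs fell, with 92 IDs in all, and 4 runs rose, with 26 IDs. The longest run in each direction held 9 IDs. How the counting treated strand and overlapping genes is not stated in the labels, so reads shared by adjacent IDs were not excluded from these numbers.

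Changes were spread over all 7 series. Between 14.6% (series G) and 19.9% (series C) of the tested IDs of a series rose, and between 19.0% (series D) and 22.6% (series F) fell. Falls of at least 2-fold made up 15.7% of series G and 14.8% of series F, against 10.7% to 12.3% of the others. IDs ending in W and in C fell at least 2-fold at 12.0% and 12.1%.

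The calls depended on which library was left out. When each of the 5 parent libraries was left out in turn, 1752 of the 3498 calls stayed past the threshold in the same direction every time, 752 rising and 1000 falling. Among changes of at least 2-fold, 381 of 570 rises and 744 of 1092 falls did. The number of rising IDs was 1010 without dark replicate 1 and 1091 without dark replicate 2, which left a single dark library that was assumed to vary like the other groups. It was 1096 when only the 5 parent libraries were fitted. None of the 3498 calls was past the threshold in the opposite direction under any of the 23 alternatives (0 IDs in each). All alternatives reuse the same libraries, so such reversals could hardly arise.

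**Figure D5:**
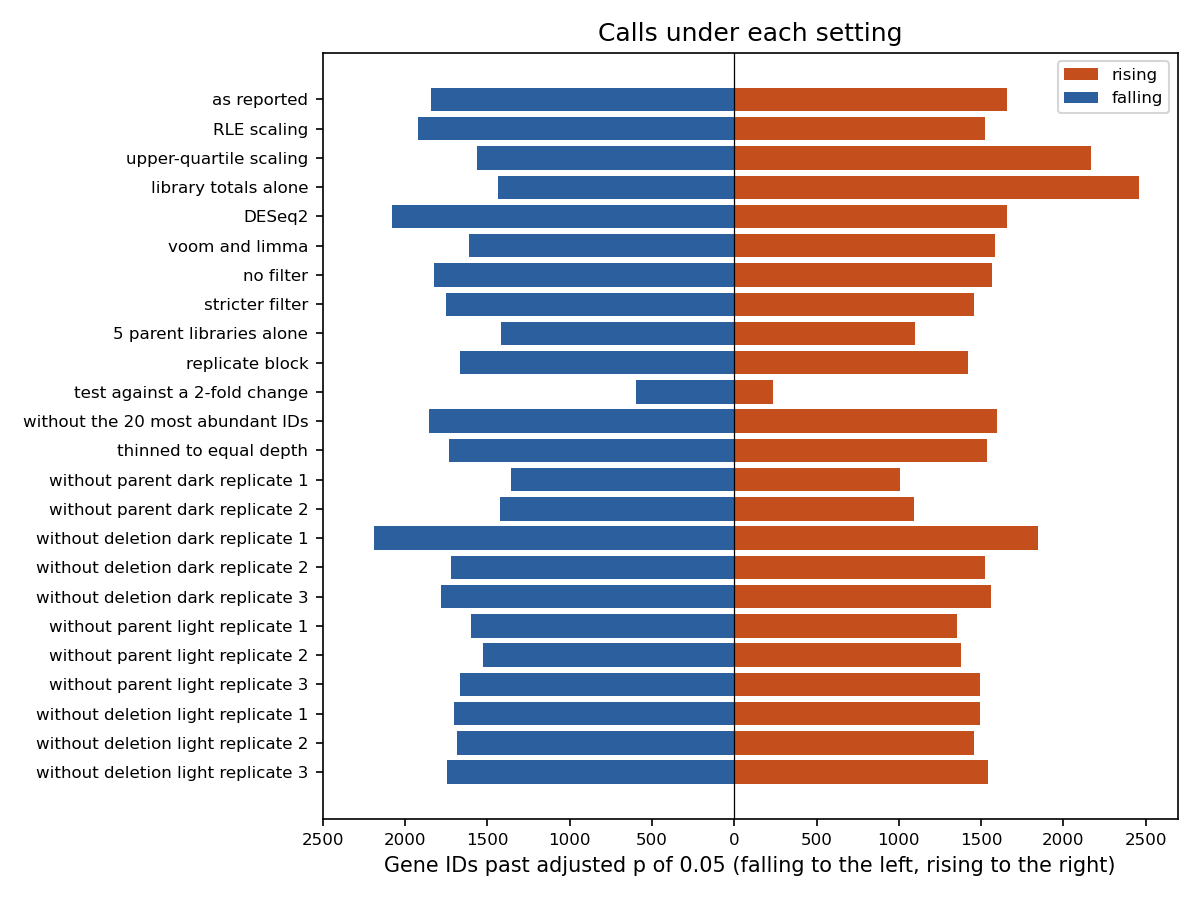
Numbers of gene IDs past the threshold in light against darkness in the parent under the reported and each alternative setting, with falls to the left and rises to the right. The split runs from 2461 rising and 1433 falling with library totals alone to 237 and 597 in the test against a 2-fold change.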

How the data were processed

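Counts per gene ID were deposited by the authors as raw counts, whole numbers with no normalization. Per the labels' protocols, RNA was depleted of ribosomal RNA and stranded libraries were made. HISAT2 2.2.1 is named in the submitters' processing notes, and a QM6a transcript set in the design text. The counter's settings for strand and multiple matches are not stated in the labels. All 11 columns were matched to samples by alignment name.

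filterByExpr in edgeR 4.0.16 (R 4.3.3) left 9040 of 10879 gene IDs, with at least 99.96% of each library's counts. Totals were scaled by TMM. A quasi-likelihood model with 4 group means and robust estimation was fitted to all 11 libraries, so the spread is shared with the deletion strain. Benjamini-Hochberg adjustment ran over all tested IDs, separately for light in each strain and for the interaction. SEs are the log2 fold change divided by the square root of F. In the parent libraries, 3 counts equal 0.194 to 0.364 CPM per library, a floor that covers counting error only. Since separate cultures are not stated, p-values may measure technical spread alone. No pair of parent replicates agreed within sampling noise (chi-square per degree of freedom 15.9 to 104).

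Named IDs are the 2 with the largest rise and the 2 with the largest fall of mean CPM, among IDs past the threshold, changed at least 2-fold and with ranges apart. Tests were tried on simulated data. Alternatives used other scalings and filters, DESeq2 1.42.0, limma 3.58.1, thinning and omission of libraries. The comparison, rules and lists were chosen with earlier results of these data known.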

Additional observations from a re-analysis of the deposited data

Results flagged for a closer look

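Among the 3498 gene IDs that changed with light in the parent, 703 (20.1%) also passed the interaction test, which asks whether the light effect differs between the strains; 10.8% of all tested IDs did. The parent libraries enter both tests, so this share is raised by construction. Of the 703, 264 had estimates of the same sign that were larger in the parent, and 89 had ones larger in the deletion strain. The estimates were of opposite sign for 350, whether or not the effect in the deletion strain was past the threshold. Among all 3498 IDs, 126 were past the threshold in the opposite direction in the deletion strain. Leaving out dark parent replicate 1 gave 273, leaving out light parent replicate 2 gave 430, and leaving out light deletion replicates 1, 2 or 3 gave 456, 410 or 421.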

How the results depend on the processing

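The 4 named IDs kept their direction and stayed past the threshold in the alternatives that gave them a value, 22 for TrE0391W, TrC1166C and TrG0022C and 23 for TrB1256C. With the 20 most abundant IDs removed, the first 3 had no value. Their log2 fold changes ran from 7.78 to 11.15 for TrE0391W, 1.45 to 1.96 for TrB1256C, -10.37 to -10.13 for TrC1166C and -10.42 to -9.88 for TrG0022C.

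The test against a 2-fold change left 834 IDs, 237 rising and 597 falling. The fit of the 5 parent libraries alone gave 1096 rising IDs. Leaving out 1 of the 11 libraries gave 2368 to 4035 calls, 1010 to 1844 rising and 1358 to 2191 falling. At least 2-fold these fits gave 443 to 598 rising and 925 to 1184 falling, and at least 16-fold 60 to 84 and 266 to 330. The 16-fold numbers and those of the lowest read count class were added to the alternatives after seeing the data. The number that differed between strains ran from 273 to 870.

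IDs at 0 counts in light numbered 122 when up to 3 counts were allowed, 34 with a minimum of 5 CPM in darkness, and 87 to 97 without 1 parent library. In darkness the numbers were 14 and 0, 8 at equal depth, and 1 to 6 without 1 parent library, with 6 without either dark library or light replicate 1 and 2 without light replicate 2. The difference in the share held by the most abundant IDs, light minus dark, was 0.0905 percentage points for 20 IDs and -1.41 for 100 IDs (exact permutation p = 1 and 0.4); the cause was not tested.

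With a replicate block 3087 IDs passed. Deviations of same-numbered libraries correlated at -0.38 to 0.26 over all groups, and those of differently numbered libraries at -0.38 to 0.38. The 2 parent pairs were at 0.14 and 0.26, but the deviations of the 2 dark parent libraries mirror each other. These values cannot decide whether the numbers pair cultures. The numbers are not taken to do so because the labels do not say it. Depth limits the low end: 3 counts are 0.364 CPM in the shallowest light library.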
